A study of Bos taurus with 14 samples.

Results

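The family of miR-15, miR-16, miR-195 and miR-497 was followed in milk small extracellular vesicles (sEVs), the small membrane particles that carry microRNA (miRNA) out of cells and into milk. Its members were chosen by name. Of 6 names looked for, 4 had an entry, the bovine bta-miR-15a, bta-miR-15b, bta-miR-16a and bta-miR-16b (below without the prefix), each with 1 precursor. They are 4 of the 350 miRNA/precursor pairs analysed here, which combine 268 mature miRNA names. No entry for miR-195 or miR-497 was among them. The vesicles came from 14 lactating Holstein cows, all with subclinical mastitis, an udder inflammation without visible signs. The 7 cows of the control group ate the mixed ration alone, and the 7 cows of the inulin group also received 300 g/d of inulin, a plant polysaccharide used as a prebiotic. After 1 wk to adapt, the treatment lasted 5 wk, and each library holds the milk sEV small RNA of 1 cow. The comparison asks whether the miRNA content of the vesicles differed between cows with and without inulin.

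A miRNA guides the Argonaute protein to messenger RNA through its seed, the bases near its 5′ end, and lowers the output of the messages it pairs with. Members of this family share their seed and are known for restraining the cell cycle and survival genes such as BCL2 and the D and E cyclins. They are transcribed as neighbours: in the RefSeq annotation of ARS-UCD2.0, MIR16A lies beside MIR15A within the locus LOC100847818, and MIR16B beside MIR15B within SMC4, a gene for a subunit of the condensin complex. The mature forms of miR-16a and miR-16b are nearly identical, so that counting may split their reads between the entries, and the level of each alone is uncertain. The listed length is 22 nt for miR-16a and miR-15b and 21 nt for miR-16b and miR-15a.

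The summed miRNA counts per library were lowest in control cow 2, at 4165, and highest in control cow 5, at 415020. Levels are given as a percentage of this total. A mature miRNA with several precursors is counted once with each of them, which enlarges the total. Intervals for a percentage are 95% Wilson intervals, and 3 counts of the total were taken as the largest share that a count of 0 allows, from 0.000723% in control cow 5 to 0.072% in control cow 2. Both cover counting error only. Of 9 mammary epithelial miRNA looked for as a check of the milk label, 7 had an entry, and together they held between 0.36% and 1.55% of the counts of a cow. Most of their 16664 counts were miR-200c, with 11333, and miR-375, with 3251. Other members were rare, with 72 counts of miR-148a in 9 cows and 64 of miR-429 in 6, and miR-205 and miR-203 had no entry.

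The family was almost entirely miR-16a. Over all cows the 4 members had 16115 counts, of which miR-16a made up 93.5%, miR-16b 6.02%, miR-15b 0.416% and miR-15a 0.0931%. The order miR-16a above miR-16b held in 14 of 14 cows. Counts of miR-16b were above those of miR-15b and of miR-15a in 13 cows, and control cow 2 had none of the 3. The last positions were not separated, since miR-15b was above miR-15a in 3 cows, below it in 1, and both were at 0 in 10. The summed family level was 0.85% ± 0.597 (SD, n = 7) without inulin and 0.723% ± 0.369 (SD, n = 7) with it.

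**Figure D1:**
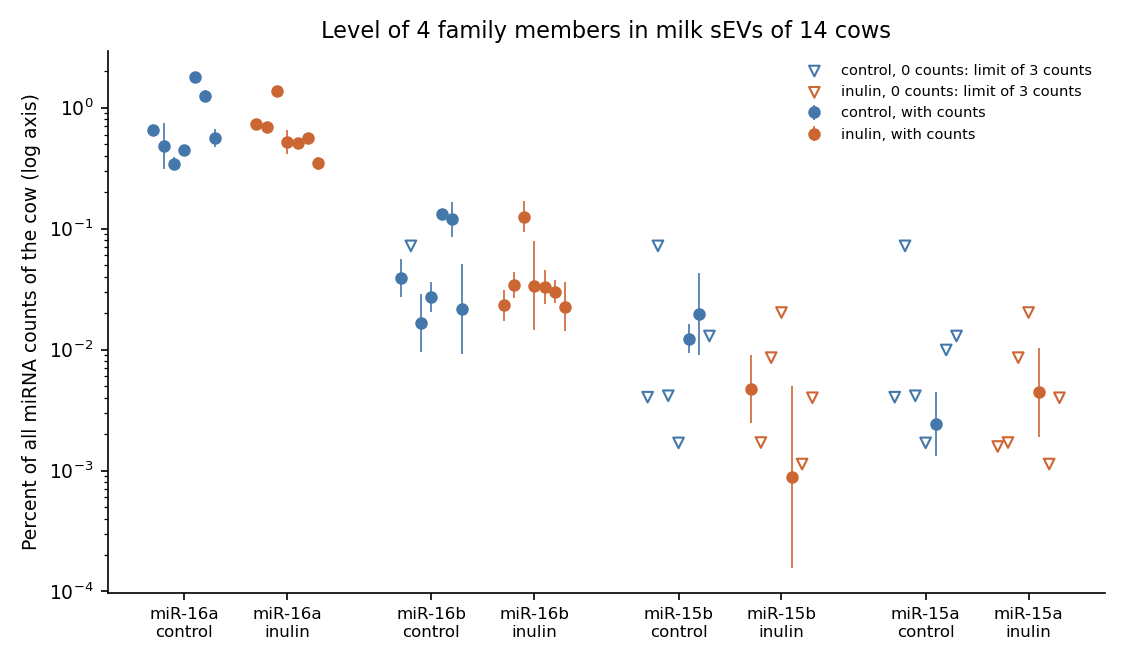
Percentage of all miRNA counts of the cow (log axis) held by each member in each cow, control in blue and inulin in orange, with 95% Wilson intervals. Open triangles mark the limit of 3 counts in cows without a count, and the miR-16a points lie between 0.345% and 1.81% in the control cows and between 0.348% and 1.38% in the inulin cows.

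miR-16a, the most abundant member and a miRNA found in most cell types, had counts in all 14 cows. In the control group its lowest level was 0.345%, its median 0.561% and its highest 1.81%. In the inulin group the lowest was 0.348%, the median 0.56% and the highest 1.38%. The groups overlapped over nearly their whole range, and 3 of 7 inulin cows were above the control median. Among mature miRNA taken once each, miR-16a ranked between 5 and 13 within a cow, with a median rank of 9. In raw counts, which scale with depth, the mean was 1366 for control cows and 786 for inulin cows, and control cow 5 alone held 78.5% of the control counts.

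A set of 3 cows stood above the others in the percentage of miR-16a. Control cow 5 had 1.81% (interval 1.77 to 1.85), inulin cow 3 had 1.38% (1.26 to 1.51) and control cow 6 had 1.26% (1.14 to 1.39). The next cow, inulin cow 1, had 0.731% (0.693 to 0.77), so the gap exceeded the counting error. Control cow 5 had the deepest library, while control cow 6, with a total of 30225, and inulin cow 3, with 34977, were among the shallower ones. Within each group, the summed level of the leukocyte miRNA looked for was highest in these cows. It was 0.0976% in control cow 5 and 0.0629% in control cow 6, above the other control cows, which ranged from 0 to 0.0514%. In the inulin group it was 0.0486% in inulin cow 3 against a range of 0.00454% to 0.0443% in the other cows. This small margin is given without a counting interval, and control cow 4 was above inulin cow 3. In inulin cow 3 the sum was almost all miR-155. No miR-223 was counted there, while inulin cows 1 and 5 had counts of it. Of the 8 leukocyte miRNA 7 had an entry, with miR-155 and miR-223 as the most abundant, and the part of leukocytes in the miR-16a level was not tested. The summed level of the epithelial miRNA was also the highest of all cows in control cow 5, at 1.55%, while control cow 6 and inulin cow 3, at 0.556% and 0.772%, were within the range of the others.

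miR-16b, the near-copy of miR-16a from the other locus, had counts in 13 cows. In the control group its level was between 0 and 0.133%, with a median of 0.0271%. In the inulin group it was between 0.0226% and 0.126%, with a median of 0.0328%, and 5 of 7 inulin cows were above the control median. The highest cows were those that were highest in miR-16a, with 0.133% in control cow 5, 0.126% in inulin cow 3 and 0.119% in control cow 6. All other cows were at or below 0.0391%. Control cow 2 had no miR-16b count beside 20 counts of miR-16a, and at this depth a count of 0 allows a level up to 0.072%.

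Within a cow, miR-16b made up a small share of the reads of miR-16a and miR-16b. The share does not depend on the scaling between cows. It had a median of 5.64% over the control cows and 5.99% over the inulin cows. The lowest share among cows with a count was 3.07% (interval 2.30 to 4.10) in inulin cow 1, where 44 of 1432 reads were miR-16b. The highest were 8.63% (6.30 to 11.7) in control cow 6 and 8.35% (6.28 to 11.0) in inulin cow 3. The interval of inulin cow 1 lay below those of both, and also below those of control cows 4 and 5 and inulin cows 5 and 6. The interval of control cow 5, 6.33 to 7.43, lay above those of inulin cows 1, 2 and 6. With the reads of a group pooled the order of the groups turned, to 6.67% for control and 4.96% for inulin. Control cow 5 contributed 8059 of the 10246 pooled control reads, with a share of 6.86%.

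**Figure D2:**
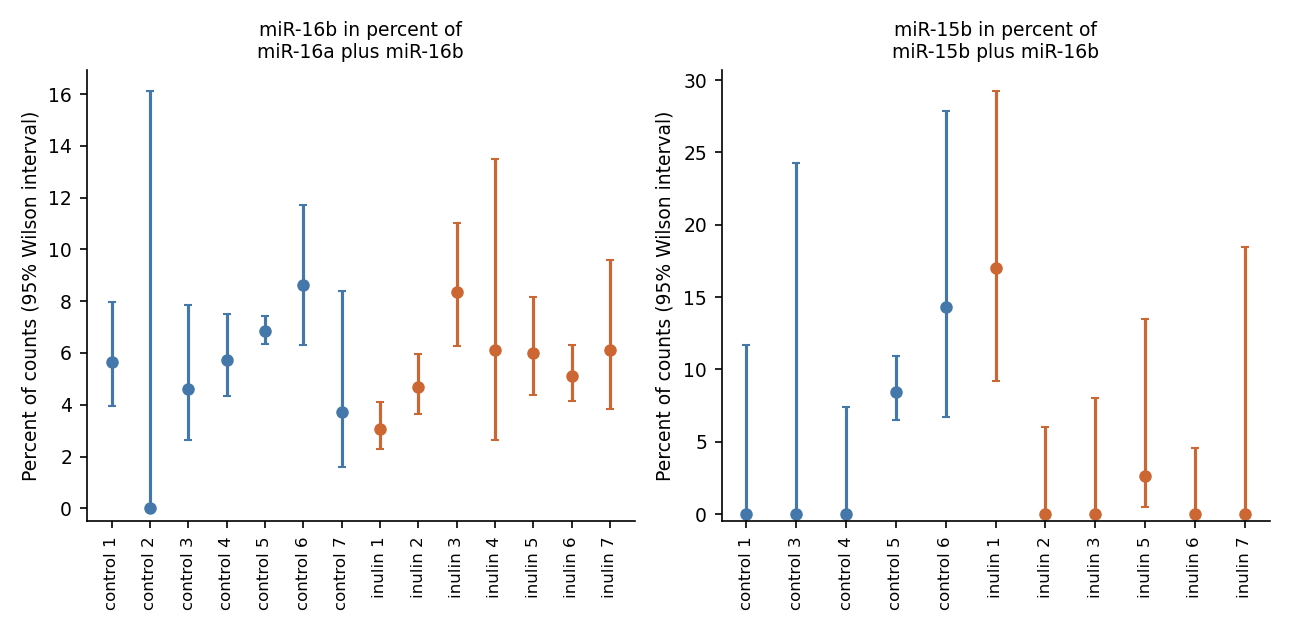
Left, miR-16b in percent of the summed miR-16a and miR-16b counts of each cow, and right, miR-15b in percent of the summed miR-15b and miR-16b counts, for cows with at least 12 such counts. Points are cows (control blue, inulin orange) with 95% Wilson intervals. The left shares lie between 0 and 8.63%, and on the right 4 cows have a miR-15b count.

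miR-15b, the precursor neighbour of miR-16b, was found in 4 cows. Control cow 5 had 51 counts, inulin cow 1 had 9, control cow 6 had 6 and inulin cow 5 had 1. As a percentage the order was different, with 0.0199% (interval 0.0091 to 0.0433) in control cow 6, 0.0123% (0.00935 to 0.0162) in control cow 5 and 0.00474% (0.00249 to 0.00901) in inulin cow 1. In 7 of the 10 cows at 0 the limit of 3 counts lay under the level of control cow 5. The lowest of these limits was 0.00113%, in inulin cow 6 with its total of 265214, and the level of control cow 5 was 10.9 times this limit.

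The ratio of miR-15b to its neighbour miR-16b differed between cows by more than counting error. In control cow 5 miR-15b was 8.44% (interval 6.48 to 10.9) of the reads of both, and in inulin cow 1 it was 17.0% (9.20 to 29.2). In inulin cow 6 it was 0 of 80 reads, which allows a share of up to 3.75%, and in inulin cow 2 it was 0 of 60, which allows 5.0%. The upper ends of their Wilson intervals, 4.58% and 6.02%, lie below the interval of control cow 5. In control cow 4, with 0 of 48 reads, the upper end was 7.41% and overlapped it. In control cow 6 the share was 14.3% (6.72 to 27.8), which overlapped the intervals of control cow 5 and inulin cow 1.

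miR-15a, the precursor neighbour of miR-16a, was the rarest member, with 10 counts in control cow 5 and 5 in inulin cow 5. The first is 0.00241% (interval 0.00131 to 0.00444) of the counts of the cow and the second 0.00443% (0.00189 to 0.0104). The intervals overlap. Relative to its neighbour, miR-15a was 0.133% (0.0723 to 0.245) of the reads of miR-15a and miR-16a in control cow 5 and 0.853% (0.365 to 1.98) in inulin cow 5. These intervals do not overlap. In inulin cow 6, with 0 of 1485 reads, the upper end of the Wilson interval was 0.258%, below the interval of inulin cow 5. Inulin cow 5 had 1 count of miR-15b, and inulin cow 1, with 9 counts of miR-15b, had 0 of miR-15a. In the 4 cows with a count of either, miR-15b and miR-15a were seen together in control cow 5 and inulin cow 5.

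A relative with the same seed that the rule did not name, miR-424-5p, had 3 counts, all in control cow 5.

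No member differed between the groups by more than the spread between cows. The pairs that reached 10 counts summed over the cows, 210 in number and all 4 members among them, were tested by quasi-likelihood in edgeR with TMM normalization. The call rule of the study, an unadjusted P below 0.05 and an absolute log2 fold change above 1, held for 0 of the 4 members and for 19 of the 210 pairs (9.05%). After Benjamini-Hochberg adjustment over the 210 pairs, 0 pairs (0%) were below 0.05 in edgeR and 19 had an unadjusted p below 0.05. DESeq2 called 9 of the 210 pairs by the same rule and also 0 members, and none was below 0.05 after adjustment. In log2 CPM (CPM, counts scaled to one common library size with TMM normalization and a prior count of 2), an exact permutation of the group labels, two-sided, gave an unadjusted p below 0.05 for 7 of the 210 pairs (3.33%), and for 0 members. The groups failed to overlap in 0 of the 210 pairs (0%). The smallest p that permuting the labels can give is 0.000583, for a pair without ties between cows. With counts in only 4 and 2 cows, miR-15b and miR-15a could not fall below 0.05 in this test, however the cows were grouped.

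For miR-16a the edgeR log2 fold change, inulin against control, was -0.21 (SE 0.45, 95% interval -1.15 to 0.73, adjusted p = 0.985 from edgeR). As a percentage of the total, control cows averaged 0.794 ± 0.539 (SD, n = 7) and inulin cows 0.678 ± 0.335 (SD, n = 7). They differed by -0.115 percentage points, inulin minus control, and by exact permutation p was 0.683 (adjusted p = 1.0 over the 210 pairs). The direction of the fold change was not fixed. It was 0.32 with the TMMwsp normalization and 0.28 without the let-7 pairs, and without control cow 5 it was 0.16. The median of all 210 pairs also moved with the scaling, from -0.40 with TMM to 0.07 with TMMwsp. Relative to that median miR-16a was at 0.19 and 0.25, respectively.

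For miR-16b the log2 fold change was -0.32 (SE 0.72, 95% interval -1.81 to 1.17, adjusted p = 0.985 from edgeR). It turned to 0.17 with TMMwsp, to 0.18 without the let-7 pairs and to 0.13 without control cow 5. The mean difference in log2 CPM had the other sign, 0.46 (exact permutation test, p = 0.644, adjusted p = 1.0). That sign rests on control cow 2, the cow with 0 counts and the lowest total, without which the difference was -0.19. Relative to the median of all pairs miR-16b was at 0.08 with TMM and 0.10 with TMMwsp.

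For miR-15b, with 57 control and 10 inulin counts, the log2 fold change was -2.07 (SE 1.40, 95% interval -4.97 to 0.83, adjusted p = 0.898 from edgeR). Control cow 5 held 89.5% of the control counts and inulin cow 1 held 90.0% of those of the inulin group. Without inulin cow 1 the value was -3.95, past the call rule (unadjusted p = 0.0227, adjusted p = 0.313 from edgeR). Without control cow 6 it was -1.41. In log2 CPM the difference was -0.54 (exact permutation test, p = 0.462, adjusted p = 1.0), and 2 cows of each group had a count. With so few cows above 0, this test could not give a p below 0.05.

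For miR-15a, with 1 cow in each group, the log2 fold change was 0.33 (SE 1.48, 95% interval -2.73 to 3.39, adjusted p = 0.985 from edgeR). Without inulin cow 5 only control cow 5 had counts, and the value was -2.55, past the call rule (unadjusted p = 0.0262, adjusted p = 0.353 from edgeR). With limma-voom it was -0.81. In log2 CPM the difference was 0.10 (exact permutation test, p = 1.0, adjusted p = 1.0). Most cows tie at 0 counts, so this test could not give a p below 0.05. The median log2 fold change of the 4 members was -0.27 and that of all 210 pairs -0.40, and 3 of 4 members and 70.0% of all pairs were below 0.

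**Figure D3:**
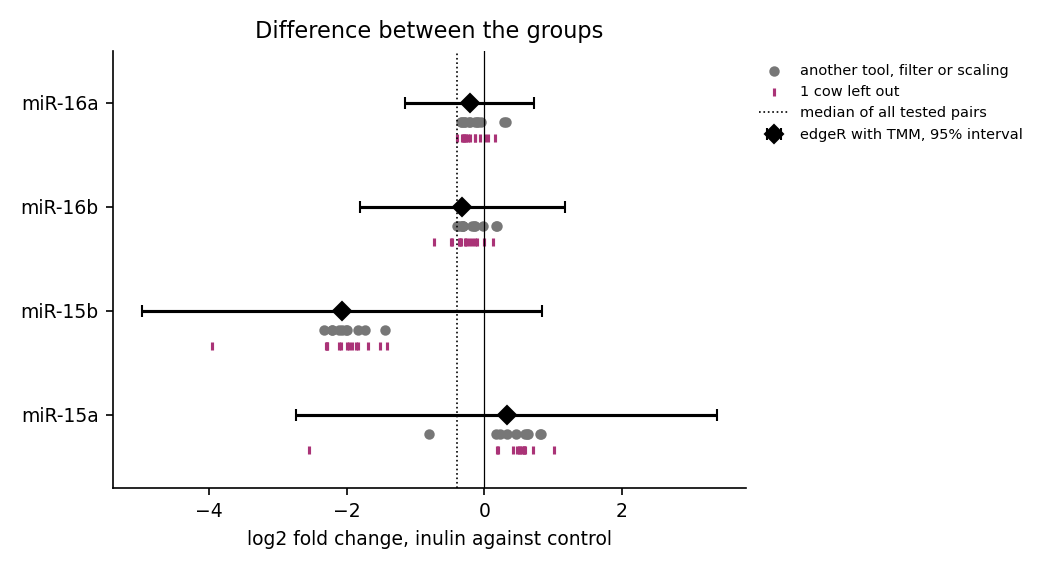
Log2 fold change of each member, inulin against control (black diamonds, edgeR with its 95% interval), beside the values with another tool, filter or scaling (grey) and with 1 cow left out (purple ticks). The dotted line is the median of all 210 pairs at -0.40, and all 4 intervals include 0.

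The let-7 family held between 41.1% and 91.2% of the counts of a cow, with a median of 78.7%. It is part of the total against which miR-16a was expressed, and let-7a-5p and let-7f enter that total once with each of their precursors. As a percentage of the counts other than let-7, miR-16a ranged from 0.758% in control cow 4 to 11.9% in inulin cow 3, a ratio of 15.7, while as a percentage of all counts the ratio of the highest to the lowest cow was 5.25. On this scale the inulin mean was above the control mean, 4.77% ± 3.85 against 3.97% ± 3.85 (SD, n = 7 each), with p = 0.692 by exact permutation. The control median was exceeded by 5 of 7 inulin cows. Inulin cow 3 and control cow 5 stayed at the top, the latter with 10.6%. The next cows were inulin cow 2 with 7.91% and control cow 6 with 7.59%, and inulin cow 2 is also the cow with the most let-7. In CPM control cow 5, inulin cow 3 and control cow 6 were highest, at 20457, 11780 and 10227. Inulin cow 2 followed with 8433, a smaller step than in the percentage of all counts.

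miR-16 is often used to normalize measurements of single miRNA in body fluids, as are several other miRNA, so its spread between cows was set beside theirs. Of the mature miRNA, 31 had counts in all 14 cows, and miR-16a had the eighth highest summed count among them. The SD of its log2 CPM over the 14 cows was 0.77, place 16 of 31 from the lowest, and its highest level in CPM was 7.95 times its lowest. Among the other reference miRNA the SD was 0.36 for let-7a-5p, 0.75 for miR-26a, 1.05 for miR-191 and 1.40 for miR-423-5p. let-7a-5p is itself a large part of the counts to which levels are scaled, so its SD cannot be read like the others. Scaled to the total count instead of TMM, miR-16a was at place 13. miR-16b, miR-93 and miR-103, also on the list, each lacked counts in 1 cow and were not ranked. Of the 8 reference miRNA, 1 passed the call rule between the groups, beside 9.05% of all 210 pairs. It was miR-423-5p, with a log2 fold change of -1.29 (adjusted p = 0.439 from edgeR, and by exact permutation p = 0.144).

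**Figure D4:**
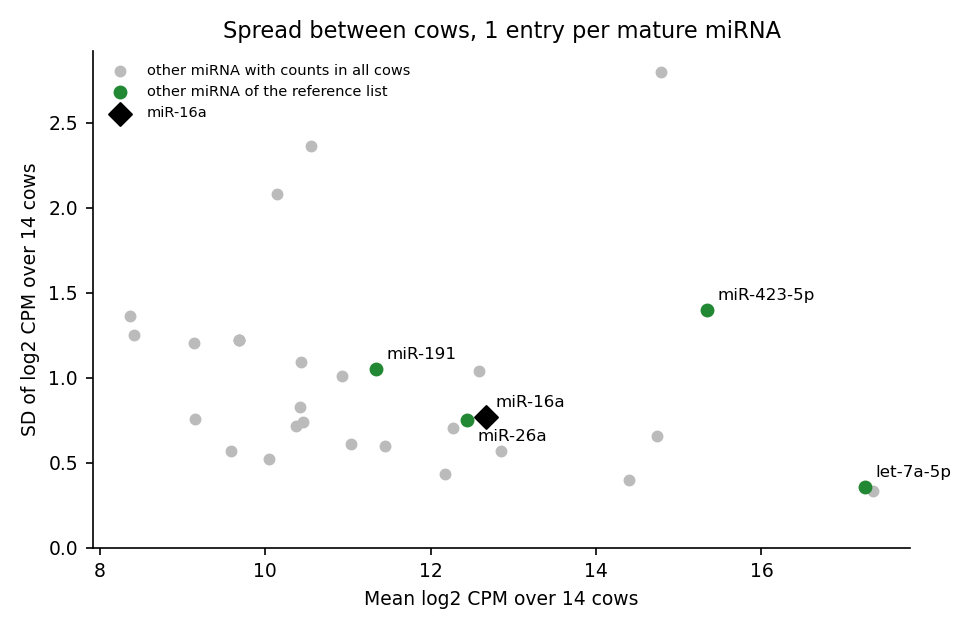
Mean and SD of log2 CPM over 14 cows for the 31 mature miRNA with counts in every cow. miR-16a (black diamond) lies at an SD of 0.77 beside miR-26a, other reference miRNA are green, and let-7a-5p has an SD of 0.36.

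The miRNA whose level was ordered over the cows most like that of miR-16a was sought among 82 other pairs with at least 100 counts. Likeness was Spearman's correlation of log2 CPM over the 14 cows, given as a description, since the values of a cow share its library and scaling. The highest values were 0.767 for let-7g, 0.758 for miR-30e-5p, 0.74 for miR-29a, 0.736 for let-7i and 0.697 for let-7e, against a median of 0.336 over the 82 pairs. Within the 7 control cows and the 7 inulin cows miR-29a had 0.927 and 0.857, let-7g 0.857 and 0.571, and let-7i 0.786 and 0.393. For miR-30e-5p these were 0.679 and 0.821, and for let-7e 0.643 and 0.571. Counts of miR-29a were present in 10 of the 14 cows, so its values include ties at 0 counts. Within the family the value with miR-16a was 0.837 for miR-16b, above all 82, but reads of these miRNA can be exchanged in counting. It was 0.553 for miR-15b and 0.278 for miR-15a, where most cows tie at 0 counts.

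**Figure D5:**
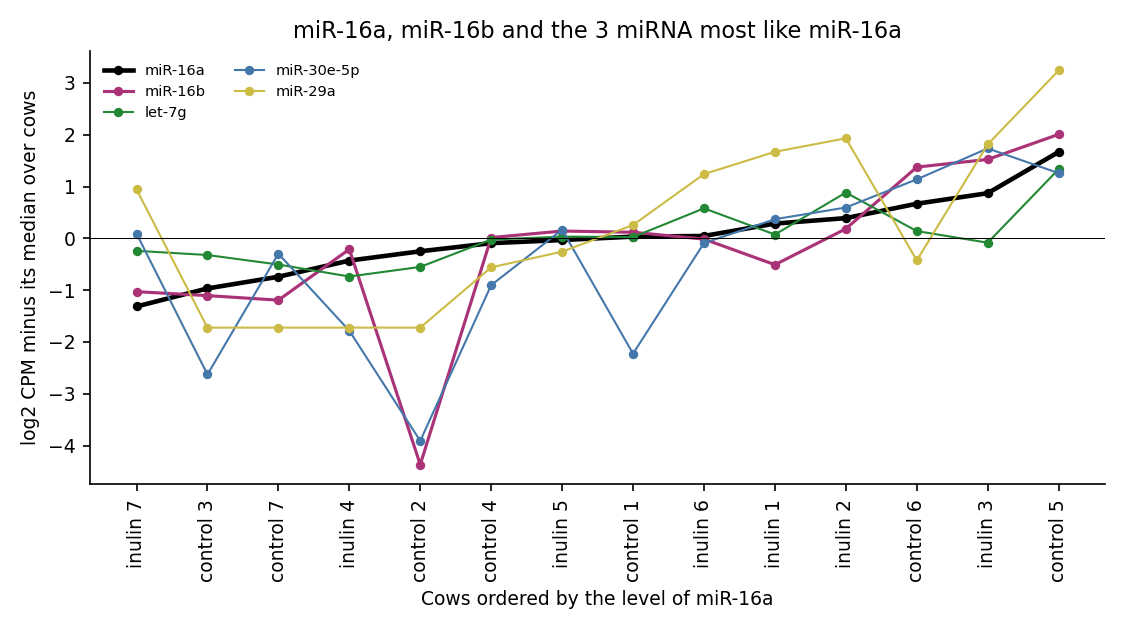
Log2 CPM minus its median over cows for miR-16a, miR-16b, let-7g, miR-30e-5p and miR-29a, with the 14 cows ordered by miR-16a. Inulin cow 3 and control cow 5 are at the high end, and miR-16b drops in control cow 2, which had 0 counts of it.

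miR-16 is also abundant in red blood cells. Of the 3 red blood cell miRNA looked for, miR-451 and miR-144 had no entry among those analysed here, and miR-486 had 5 counts, 4 in control cow 1 and 1 in inulin cow 4. Its level was 0.00539% in control cow 1 and 0.00675% in inulin cow 4, and it was 0 in the other cows. Among the 3 cows with the highest miR-16a, a count of 0 allows up to 0.000723% in control cow 5, but up to 0.00993% in control cow 6 and 0.00858% in inulin cow 3, above the levels seen. The part of red blood cells in the miR-16a level was not tested. In both cows with a count of miR-486, miR-16a was within the range of the other cows, at 0.653% and 0.519%.

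The 3 marker lists were set beside the comparison of the groups. Of the 6 leukocyte miRNA tested, 1 passed the call rule, beside 9.05% of all 210 pairs, and their median log2 fold change was -1.34, beside -0.40. The most abundant of them, miR-155, was at 0.17 (adjusted p = 0.985 from edgeR), and all the others were below 0. Counts of miR-155 were present in 13 cows, of miR-223 in 7, of miR-142-3p and miR-342 in 6, and of miR-146b in 2. The pair called was miR-142-5p, with 32 counts in 2 control cows and 0 in the inulin group (adjusted p = 0.274 from edgeR, and by exact permutation p = 0.462). With counts in 2 cows only, this permutation test could not give a lower p. The summed leukocyte level was between 0 and 0.0976% in the control group and between 0.00454% and 0.0486% with inulin. Of the 7 mammary epithelial miRNA tested, 0 passed, with a median log2 fold change of -0.19. The highest value was that of miR-375, at 1.10 (unadjusted p = 0.0528, adjusted p = 0.528 from edgeR). In log2 CPM miR-375 differed by 1.31 (exact permutation test, p = 0.0181, adjusted p = 0.795). The lowest fold change was -1.19, for miR-200b (adjusted p = 0.918 from edgeR). The summed epithelial level was between 0.36% and 1.55% without and between 0.602% and 1.05% with inulin. None of the red blood cell miRNA had enough counts to be tested.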

How the data were processed

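Milk sEV small RNA of 14 cows was sequenced, 1 library per cow. Per the labels and the study's methods, the authors filtered reads by adapter, length and quality, annotated them against Rfam and miRBase and deposited the miRDeep2 counts of each miRNA/precursor, without normalization; ARS-UCD1.2 is the build in the submitters' processing notes. Deposited rpm values, counts per fixed library size, differed from recomputed values by at most 0.005 and were not tested. The deposited total is the sum of a pair's counts over all cows, and the other deposited column is the length in nt.

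Cows were grouped by their labels. Equal numbers in both groups are different animals, and p-values set the difference between the groups against the spread between cows. Depth was 4165 to 415020 counts per cow. Counts were tested with edgeR 4.0.16 (R 4.3.3), with DESeq2 1.42.0 and limma 3.58.1 as alternatives, on pairs with at least 10 counts, and p-values were adjusted over all tested pairs. Exact permutation tests, two-sided, used Python 3.11.15, NumPy 2.4.6 and SciPy 1.17.1; figures used matplotlib 3.10.9. Family members, lists and tests were chosen with earlier results of these data known. Named miRNA are the members present, relatives with the same seed, the 5 pairs most like miR-16a and members of the lists. Alternatives covered the tool, scaling, filter, let-7 pairs, precursors, depth, prior count, a block for cow number, and leaving out every cow in turn.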

Additional observations from a re-analysis of the deposited data

Results flagged for a closer look

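For every member and scale, the gap between the extreme cow and its neighbour was divided by the range of the group (Dixon's test, 95% level). Of 20 groups of 7 cows 9 passed, where about 1 in 20 would by chance if the values were normally distributed. Many of these groups hold ties at 0 or the same reads on another scale, so the 9 are not read as an excess. In the inulin group inulin cow 3 stood apart in its level of miR-16a (1.38%, next cow 0.731%), of miR-16b (0.126%, next 0.0341%) and of the summed family (1.51%, next 0.759%). These are 3 measures of nearly the same reads. On the log2 CPM scale the same cow was not picked for either miRNA.

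The other picks belong to members with few counts. For miR-15b inulin cow 1 stood apart at 0.00474% and 6.11 log2 CPM, with 9 counts. For miR-15a control cow 5 was at 0.00241% and 5.51 log2 CPM, with 10 counts, and inulin cow 5 at 0.00443% and 6.18 log2 CPM, with 5 counts. The ratio is always 1.0 where no other cow of the group has a count, as for miR-15a. For miR-15b only 2 cows of the inulin group had a count. The picks for both thus cannot be set against the number given by chance.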

How the results depend on the processing

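Of 242 values under an alternative, 220 kept their direction and their side of the threshold, or moved by less than the SD between cows. No member passed the call rule in 12 alternatives of tool, scaling, filter, depth or pairing (0 members), while with each cow left out the number was 0 to 1. For values that changed, the cause was not tested. With TMMwsp the log2 fold change was 0.32 for miR-16a and 0.17 for miR-16b. Without the let-7 pairs these were 0.28 and 0.18, the difference in log2 CPM of miR-16a was 0.31, that of its share 0.807 percentage points, and that of the summed family 0.825. With limma-voom miR-15a was at -0.81. Leaving out 1 cow at a time, the log2 fold change was between -0.39 and 0.16 for miR-16a, -0.74 to 0.13 for miR-16b, -3.95 to -1.41 for miR-15b and -2.55 to 1.01 for miR-15a, which was not tested without control cow 5. The difference in log2 CPM ranged from -0.24 to 0.20, -0.19 to 0.87, -0.80 to -0.15 and -0.19 to 0.28 in the same order, and that of the share of miR-16a from -0.232 to 0.0539. The deviations of equally numbered cows correlated above 0.1 in 2 of 7 pairs, and no cow was closest to its own number (0 of 7). With 7 pairs this check cannot decide whether equally numbered cows share more than others. With the replicate block the fold changes were -0.09, -0.02, -2.34 and 0.59, again with 0 members called. With filterByExpr or thinned counts, miR-15a and miR-15b had too few counts to be tested. At 0 counts, the limit of 3 counts lay under the highest level in 8 of 10 cows for miR-15b. For miR-15a this held in 7 of 12. In the remaining cows a count of 0 allows that level. The number of all pairs called was 19 with TMM, 9 with DESeq2, 75 of 350 without a filter, 3 of 62 with filterByExpr, 4 of 62 with thinned counts and 7 with the block, where 1 pair was below 0.05 after adjustment.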

Other observations

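The summed control counts of miR-16a/mir-16a and miR-26a/mir-26a-2 were equal, 9563 each, although the counts agreed in only 1 cow. In control cow 5 they were 7506 and 7941, in control cow 6 they were 381 and 135, and in control cow 2 both were 20. In the inulin group the sums were 5500 and 5453. The equal group means of these entries thus hold different values per cow.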
